A study of Mus musculus with 6 samples.

Results

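Metallothioneins and zinc transporters were examined in mouse liver after exposure to trichloroethylene (TCE), a chlorinated solvent. The group holds 8 genes, among them the metallothioneins Mt1 and Mt2 and the metal-responsive regulator Mtf1. The others are the zinc exporter Slc30a1, its family member Slc30a10, which exports manganese, and the zinc importers Slc39a4, Slc39a5 and Slc39a14. Their members were all probes, other than array controls, that the array annotation assigns to these gene symbols, which gave 11 of 55681 probes. Detection of a probe required, in 1 group or both, a signal flagged as well above background in 3 of 3 mice. By this rule 10 of the 11 probes and 8 of the 8 genes were detected, among 22731 probes and 13284 genes in all. Slc39a5 passed through the TCE group alone, so it could only enter the comparison with a higher signal there.

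Liver RNA came from male B6C3F1 mice, 7 weeks old by the labels, that were dosed by gavage once a day for 5 days. The control mice (n = 3) received corn oil, and the TCE mice (n = 3) received TCE dissolved in corn oil at 1000 mg/kg b.w. per day, so that both groups shared the vehicle. RNA of each mouse was hybridized to its own 1-colour microarray, and the livers were whole tissue taken soon after the last dose. The 6 hepatocyte markers looked at were well above background in all 6 mice, and 0 of them passed the threshold for a change. In such bulk samples, fewer cells of a type and less RNA per cell cannot be told apart.

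Metallothioneins are small, cysteine-rich proteins that bind zinc and copper, and their genes are switched on in liver by metals, glucocorticoids, inflammatory cytokines and oxidative stress. The zinc-finger protein Mtf1 senses free zinc and binds metal response elements in the promoters of Mt1, Mt2 and Slc30a1. Most transporters of the Slc30 family move zinc out of the cytosol, and those of the Slc39 family move it in.

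The promoters of the neighbouring genes Mt1 and Mt2 on chromosome 8 are shown because both carry the element by which these genes are known to answer metals. The 250 bases before the RefSeq start of Mt2 (GRCm38.p6, chr8:94172368-94172617, plus strand) and the last 30 bases before that of Mt1 (GRCm38.p6, chr8:94179059-94179088, plus strand) are given 5′ to 3′. The RefSeq gene span of Mt1 begins earlier, at chr8:94178883, so the 30 bases shown lie within that span. Capitals mark matches to the core of the metal response element on either strand.
Mt2: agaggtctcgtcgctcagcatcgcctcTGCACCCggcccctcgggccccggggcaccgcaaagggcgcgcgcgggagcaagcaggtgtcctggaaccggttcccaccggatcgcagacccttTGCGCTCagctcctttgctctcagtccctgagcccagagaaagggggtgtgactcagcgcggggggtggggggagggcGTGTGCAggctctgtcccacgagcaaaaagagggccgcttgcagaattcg
Mt1: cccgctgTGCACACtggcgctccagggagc

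The core was searched as TGCACNC or TGCGCNC on both strands, in windows from 250 bases before to 50 bases after each RefSeq start. The Mt2 window held 4 matches. On the gene's own strand they were TGCACCC at -223 to -217 and TGCGCTC at -128 to -122, and on the opposite strand TGCACAC at -50 to -44 and TGCGCAC at 5 to 11, counted from the start. The Mt1 window held 3 matches, all on its own strand, TGCACAC at -23 to -17, TGCACTC at 3 to 9 and TGCGCTC at 21 to 27. These positions hold for the RefSeq start of this window, and the start used in liver was not tested. Matches outside the window were not searched. Of 32851 promoter windows in the RefSeq table, 25.7% held at least 1 match, 1.97% held 3 or more and 0.52% held 4 or more. The Mt2 window also held TGACTCAGC, a match to the antioxidant response element core TGACNNNGC, which 12.39% of windows hold.

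Among the transporters, the Slc30a10 window held 3 core matches, of which the pair at -233 to -226 overlapped on opposite strands, and the Slc30a1 window held 2. Slc39a5 has a pair of windows in the table. The first held 0 matches to the metal response element core and 2 to the antioxidant core, and the second held TGCACAC on the opposite strand at -129 to -123. The Mtf1 window held 0 matches. In the wider family of zinc genes, 10 of the 19 genes that are not among these 8 and have a window held a match, and 1, Slc30a4, held 3 or more. A match is a run of letters in a window and was not tested for binding. Slc39a4 and Slc39a14 were not matched in the promoter table.

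**Figure D1:**
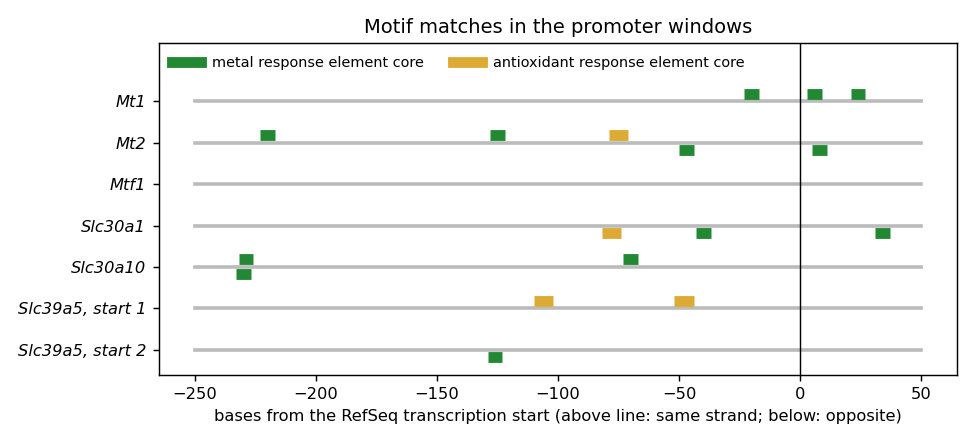
Matches to the metal response element core (green) and the antioxidant response element core (yellow) in the promoter windows of the member genes. The x axis is the distance in bases from the RefSeq start, marks above a line are on the strand of the gene and marks below on the opposite strand. Mt2 has 4 green marks, Mt1 and Slc30a10 have 3 each, and Mtf1 has 0.

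Levels are given below as log2 of the background-corrected signal after quantile normalization across the 6 arrays, and fold changes are TCE over control from limma, which fits a linear model to each probe and borrows information on variance from the others. A gene passed the threshold when it changed 2-fold or more and its p, adjusted by Benjamini-Hochberg over all detected probes, was 0.05 or less. Of the 13284 detected genes, 1.30% passed it with higher levels in TCE mice and 0.429% with lower levels. Among the 8 member genes, 1 passed it with a higher level, Slc39a5, and 0 with a lower level. After quantile normalization Mt1 and Mt2 were higher in every TCE mouse than in every control mouse, but neither passed after adjustment. For Mt1 the groups overlapped before normalization, and also with scaling to the 75th percentile in its place. The other 5 genes overlapped between the groups. In total 3 of 8 member genes (37.5%), Mt1 among them, had groups that did not overlap after quantile normalization, against 27.9% of all detected genes. An adjusted p of 0.05 or less at any fold was found for 1 of 8, against 2.39%. Before adjustment 3 of 8 had a limma p under 0.05, against 19.1% of all detected genes. The median log2 fold change of the members was 0.01, with 4 genes higher and 4 lower, and that of all detected genes was 0.02.

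Mt2, which binds zinc and copper alongside Mt1, had log2 signals of 14.39, 15.47 and 13.48 in control mice 1, 2 and 3 and of 17.42, 15.73 and 16.27 in TCE mice 1, 2 and 3. The lowest TCE mouse lay above the highest control mouse, although by a small step. The means were 14.44 ± 1.00 in control mice and 16.47 ± 0.86 in TCE mice (SD, n = 3 each), and the log2 fold change was 2.03 (SE 0.61, 95% interval 0.56 to 3.50), that is 4.09-fold. By limma the unadjusted p was 0.0142 and the adjusted p 0.162. On the linear scale, the normalized signal ran from 11390 to 45260 in control mice and from 54510 to 175300 in TCE mice.

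Mt1 was measured by a pair of probes. The probe that lists the RefSeq mRNA (chr8:96704165-96704224 in the array annotation, whose genome build is not named in the sources used here) had log2 signals of 15.53, 16.32 and 15.25 in control mice and of 17.45, 16.33 and 16.76 in TCE mice. Control mouse 2 and TCE mouse 2 were at almost the same level, and the groups did not overlap. Before normalization control mouse 2 read 75570 on the linear scale and TCE mouse 2 read 73040. The separation of the groups thus rests on the quantile normalization. With 75th percentile scaling control mouse 2 stays just above TCE mouse 2, so the groups overlap. The means were 15.70 ± 0.55 and 16.84 ± 0.57 (SD, n = 3 each), which gave a log2 fold change of 1.14 (SE 0.37, 95% interval 0.24 to 2.05), or 2.21-fold. In limma the p was 0.0206 before adjustment and 0.191 after it.

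The second Mt1 probe (chr8:96703844-96703903, same annotation) lists Mt1 transcripts but not the RefSeq mRNA. It read 6.30, 4.93 and 6.18 in control mice and 11.11, 9.15 and 6.83 in TCE mice, again without overlap. It was well above background in 2 of 3 control mice and in 3 of 3 TCE mice. The spread among TCE mice was wide, with means of 5.80 ± 0.76 and 9.03 ± 2.14 (SD, n = 3 each). Its log2 fold change was 3.23 (SE 1.04, 95% interval 0.72 to 5.73), with an adjusted p of 0.185 by limma. Both Mt1 probes thus gave a higher mean in TCE mice and missed the threshold, with different sizes. TCE mouse 3 was the lowest TCE mouse on this probe and TCE mouse 2 on the RefSeq mRNA probe.

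**Figure D2:**
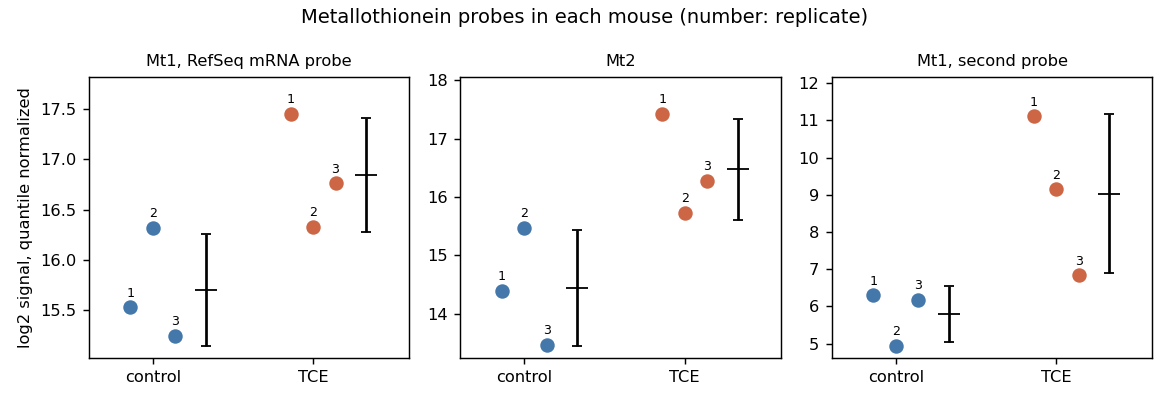
Log2 quantile-normalized signal of the Mt1 and Mt2 probes in each control mouse (blue) and TCE mouse (orange), with replicate numbers, and the group mean ± SD (n = 3) in black. The y axes differ between panels. Every TCE mouse lies above every control mouse, with TCE mouse 2 at 16.33 next to control mouse 2 at 16.32 on the RefSeq mRNA probe of Mt1.

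The mice fell in the same order for Mt1 (RefSeq mRNA probe) and Mt2. Control mouse 2 was the highest control and control mouse 3 the lowest, and TCE mouse 1 was the highest TCE mouse and TCE mouse 2 the lowest. The 60-base probes of these genes share no run of bases longer than 7. Matches of a probe to the transcript of the other gene were not searched, so a shared signal was not tested. Within groups the pooled SD was 0.93 for Mt2 and 0.56 for Mt1, against a median of 0.20 over all detected genes, which placed the genes at percentiles 98.5 and 93.3 of spread. The fold change of Mt2 exceeded that of the RefSeq mRNA probe of Mt1 by 0.89 on the log2 scale (SE 0.32), while the second Mt1 probe, at 3.23, lay above Mt2 at 2.03, so the direction turns with the probe. The exact permutation test of the difference from the RefSeq mRNA probe (two-sided, 20 splits of the mice) gave p = 0.1, which is the smallest p that 3 against 3 mice allow.

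Other inducers of metallothioneins were followed through their known target genes. Among 14 genes of the IL-6 and acute phase response, 11 were higher and 3 lower in TCE mice, with a median log2 fold change of 0.35, and 0 passed the threshold by limma, while 3 of 14 had an unadjusted p under 0.05, a share near the 19.1% of all detected genes. The methods' t-test (2-fold, p of 0.05 without adjustment) passed 1 of 14, Lcn2, against 3.09% of all detected genes. Lcn2, an iron-siderophore binding protein of the acute phase, had the largest value of the list at 3.50 (SE 0.72, adjusted p = 0.0752), with log2 signals of 13.42, 10.40 and 12.40 in TCE mice 1, 2 and 3 and of 8.30 to 8.88 in control mice. The 3 lower genes were Hamp (-0.53), Socs3 (-0.18) and Itih4 (-0.02). Relative to the control mean, the median of this list was 0.77 in TCE mouse 1, 0.27 in TCE mouse 3 and 0.01 in TCE mouse 2. In control mice it lay between -0.08 and 0.06. The 7 glucocorticoid targets had a median of -0.09, ranging from -0.39 to 0.36. In the 4 detected targets of Mtf1 outside the metallothionein and zinc transporter families the median was -0.12, ranging from -0.32 to 0.24. For 8 copper handling genes it was 0.10, ranging from -0.13 to 0.34. Relative to the control mean, the list medians in TCE mice 1, 2 and 3 were -0.09, -0.08 and -0.06 for glucocorticoid targets. They were -0.36, 0.21 and -0.17 for Mtf1 targets and 0.10, 0.16 and 0.11 for copper genes. With 3 TCE mice a list can share or lack the order of Mt1 and Mt2 without any link, and orders were not tested. By limma 0 genes of these last 3 lists passed the threshold, and 1 of 7, 0 of 4 and 1 of 8 had an unadjusted p under 0.05, shares no higher than the 19.1% of all detected genes. With the methods' t-test 1 of 7, 0 of 4 and 3 of 8 had an unadjusted p under 0.05, against 19.0% of all detected genes, so the copper share was higher there. The part of these responses in the metallothionein values was not tested.

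Mtf1, the zinc-sensing transcription factor, showed no detected change. Its probe with the highest mean signal read 8.79, 8.69 and 8.88 in control mice and 8.80, 9.10 and 8.56 in TCE mice, so that the TCE mice lay on both sides of the controls. The log2 fold change was 0.03 (SE 0.16, 95% interval -0.36 to 0.42, adjusted p = 0.944 by limma). A second probe gave 0.31 (SE 0.14, adjusted p = 0.315), and the remaining probe did not rise well above background in a single mouse and was not tested.

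Slc39a5 (ZIP5), a zinc importer of the basolateral membrane known from intestine, pancreas and liver, was the member past the threshold. Its probe is shown because the result rests on it alone. It lies at chr10:127834340-127834762 in the array annotation (build not named in the sources used here), a span wider than the probe's 60 bases, and is given here 5′ to 3′ in lower case with no part marked.
Slc39a5 probe: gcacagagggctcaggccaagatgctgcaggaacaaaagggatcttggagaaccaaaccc

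Slc39a5 had log2 signals of 2.70, 3.55 and 3.34 in control mice and of 5.90, 6.11 and 5.30 in TCE mice. The groups did not overlap, with means of 3.20 ± 0.44 and 5.77 ± 0.42 (SD, n = 3 each). The fitted log2 fold change was 2.57 (SE 0.29, 95% interval 1.86 to 3.28, adjusted p = 0.0146 by limma). The probe was well above background in 3 of 3 TCE mice and in 0 of 3 control mice, where its level is only a bound and the spread is that of a signal near background. As detection in TCE mice alone brought it into the fit, its p is no independent support, and with all probes tested whatever their signal the adjusted p was 0.0923. The lowest probes well above background in control mice 1, 2 and 3 were at 5.02, 4.54 and 4.80. Set against these limits the mean of the TCE mice was 1.97-fold higher. This is no strict minimum, as some probes that were not well above background also read above these limits.

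On the linear scale the normalized signal of Slc39a5 was 6.52, 11.7 and 10.1 in control mice and 59.6, 68.8 and 39.3 in TCE mice. These are dim values, and the mean over all mice lay at percentile 0.13 of the detected probes. With normexp background correction of the mean pixel signal, the log2 fold change was 0.68 (adjusted p = 0.0296), under the fold threshold. Without control mouse 3 the adjusted p was 0.0628 and without TCE mouse 1 it was 0.0698, with log2 fold changes of 2.64 and 2.50. The array of control mouse 1 had a separate slide and scan, and the other 5 arrays shared one. With slide as a block the change was 2.32 (adjusted p = 0.0398), and on the shared slide alone, without control mouse 1, it was 2.32 (adjusted p = 0.0431). The slide block takes up control mouse 1 alone, so these fits must give the same change for every probe and are not separate checks. The corresponding values with slide as a block were 1.06 for Mt1 and 2.00 for Mt2 (adjusted p = 0.348 and 0.303), and neither passed the threshold on the shared slide alone, where the changes were again 1.06 and 2.00 (adjusted p = 0.355 and 0.311).

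The 3 genes whose levels relative to the control mean were nearest to those of Slc39a5 over the 6 mice, out of 13283 compared, were Cpt1b, Mki67 and Cerkl. Cpt1b is the muscle-type enzyme that passes long-chain fatty acids into mitochondria. It had a root mean square distance from Slc39a5 of 0.25 on the log2 scale and a log2 fold change of 2.34 (adjusted p = 0.0188). Mki67, the proliferation marker Ki-67, lay at a distance of 0.27 with a change of 2.44 (adjusted p = 0.00176). Cerkl, a ceramide kinase-like protein, lay at 0.31 with a change of 2.73 (adjusted p = 0.0299). Cpt1b and Cerkl passed detection through the TCE group alone, with 2 and 0 control mice well above background. Cerkl could thus only enter the comparison with a higher signal in TCE mice. Set against the lowest probes well above background in control mice, Cerkl was 2.97-fold higher in TCE mice. These 3 genes were picked by their likeness over these same mice. Their fold changes and adjusted p thus describe that choice and are no independent support.

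Since Slc39a5 is also a gene of pancreas and intestine, markers of those tissues were looked at beside it. Of 8 pancreatic acinar markers, the lipase gene Cel, the colipase gene Clps and the chymotrypsinogen gene Ctrb1 were well above background in all 6 mice. Their log2 fold changes were 0.44, 0.41 and -0.16 (adjusted p = 0.306, 0.708 and 0.589 by limma), with a median of 0.41, and the groups did not overlap for Cel. The other 5, the digestive enzyme genes Cpa1, Cela2a, Cela3b, Cpb1 and Pnlip, were not well above background in a single mouse. The summed normalized signal of the acinar list was 555 to 657 in control mice and 564 to 636 in TCE mice. Of 7 intestinal epithelial markers, 1 was well above background in any mouse, Vil1, a microvillus protein. It was well above background in 3 control mice and 0 TCE mice, so it could only enter the fit as lower in TCE mice. Its means were 5.32 and 3.83 (fitted log2 fold change -1.49, SE 0.25, adjusted p = 0.0419 by limma). Set against the lowest probes well above background in TCE mice, its control mean was 1.47-fold higher. The part of such tissues in the Slc39a5 signal was not tested.

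Slc39a4 (ZIP4), the importer by which the intestine takes up dietary zinc, held nearly the same level in all 6 livers. Its log2 signals were 14.85, 14.81 and 14.94 in control mice and 14.76, 14.85 and 14.75 in TCE mice. The groups overlapped, and the log2 fold change was -0.08 (SE 0.11, 95% interval -0.34 to 0.17, adjusted p = 0.721 by limma). Its pooled SD of 0.062 was at percentile 3.7 of all detected genes.

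Slc39a14 (ZIP14), a hepatic importer of zinc, iron and manganese that inflammation induces, read 12.55, 12.59 and 12.44 in control mice and 12.61, 12.37 and 12.56 in TCE mice. The TCE mice lay on both sides of the control mice. Its log2 fold change was -0.02 (SE 0.12, 95% interval -0.30 to 0.27, adjusted p = 0.965 by limma). Changes of 2-fold in either direction lie outside the intervals of Slc39a4, Slc39a14 and Mtf1.

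Slc30a1 (ZnT1), the plasma membrane zinc exporter, had log2 signals of 10.56, 10.61 and 9.98 in control mice and of 10.10, 10.15 and 9.76 in TCE mice. Control mouse 3 lay below TCE mice 1 and 2, so the groups overlapped. The means were 10.38 ± 0.35 and 10.00 ± 0.21 (SD, n = 3 each), and the log2 fold change was -0.38 (SE 0.21, 95% interval -0.89 to 0.13, adjusted p = 0.407 by limma). The mean of this exporter was thus lower in TCE mice while those of Mt1 and Mt2 were higher, and none of these 3 differences passed the threshold.

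Slc30a10 (ZnT10), which exports manganese from hepatocytes, read 9.27, 9.35 and 8.91 in control mice and 8.31, 8.92 and 8.80 in TCE mice. The groups overlapped only through TCE mouse 2 and control mouse 3, which were at nearly equal levels. The means were 9.18 ± 0.24 and 8.68 ± 0.33 (SD, n = 3 each), with a log2 fold change of -0.50 (SE 0.21, 95% interval -1.00 to 0.00) and an adjusted p of 0.279 by limma. It had the lowest fold change of the 22 detected zinc family genes.

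**Figure D3:**
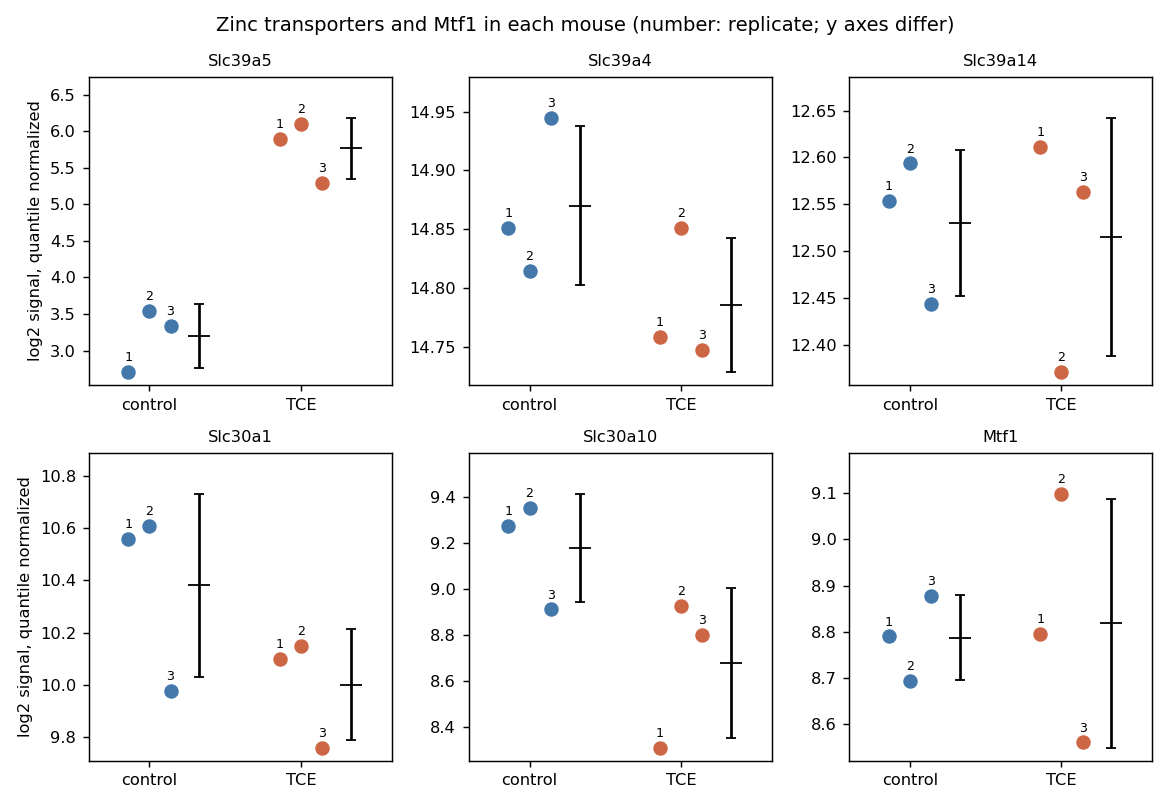
Log2 quantile-normalized signal of the 5 zinc transporters and of Mtf1 in each control mouse (blue) and TCE mouse (orange), with replicate numbers, and the group mean ± SD (n = 3) in black. The y axes differ between panels, and only Slc39a5 has groups that do not overlap, at 2.70 to 3.55 in control mice and 5.30 to 6.11 in TCE mice.

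The remaining metallothioneins and Slc30 and Slc39 genes were taken as a list of 21 genes, of which 14 were detected. By limma 0 of the 14 passed the threshold and 0 had an adjusted p of 0.05 or less, while 1 of 14 had an unadjusted p under 0.05 (19.1% of all detected genes) and 2 of 14 had one by the methods' t-test (19.0%). Their log2 fold changes ran from -0.21 to 0.39 with a median of 0.10, 10 higher and 4 lower. In 4 of 14 the groups did not overlap, against 27.9% of all detected genes. The lowest adjusted p of the list was 0.219, for Slc30a5, an exporter of the secretory pathway (log2 fold change 0.39). Mt3, the metallothionein best known from brain, gave -0.12 (adjusted p = 0.596), and Mt4, that of stratified epithelia, was well above background in 1 TCE mouse only and was not tested. For Slc30a7, an exporter of the Golgi apparatus, the probe with the highest mean signal gave 0.09 and another probe gave -1.14 (adjusted p = 0.141), so its probes disagree. Together with the 8 members, 18 of 22 detected family genes (81.8%) had a log2 fold change within 0.5 of 0, against 84.2% of all detected genes.

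**Figure D4:**
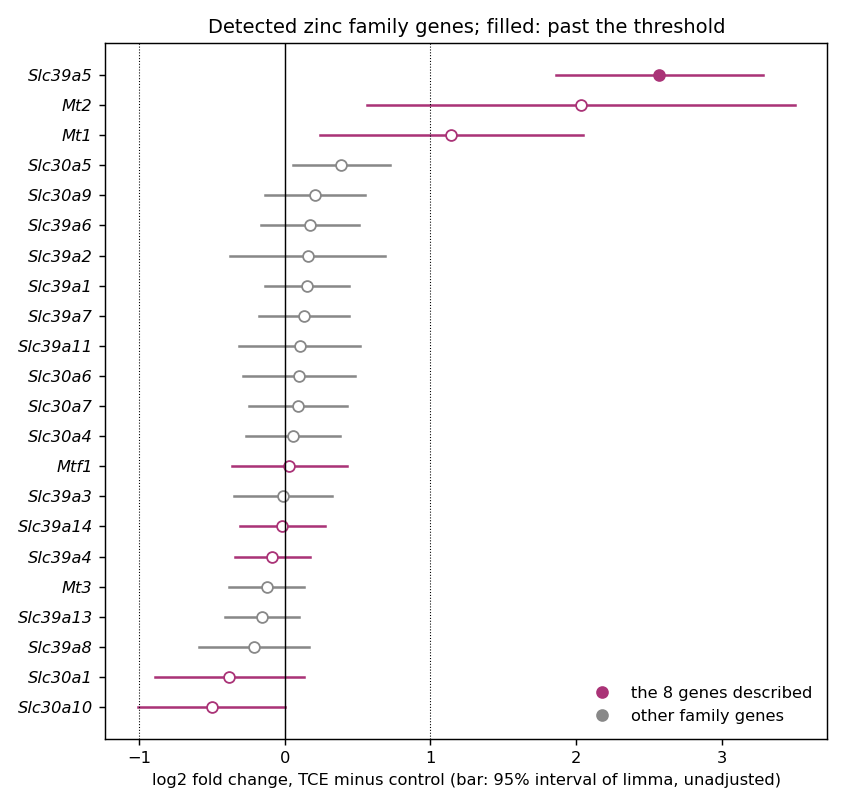
Log2 fold change (TCE minus control) of the 22 detected metallothionein, Slc30 and Slc39 genes and Mtf1, with the unadjusted 95% interval from limma. Purple marks the 8 genes described and grey the other 14, the dotted lines are at 2-fold, and the single filled point is Slc39a5 at 2.57, with Mt2 at 2.03 and Mt1 at 1.14 next to it.

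The arrays themselves were alike in depth of detection, with 23537 to 24934 probes well above background in control mice, 23569 to 24965 in TCE mice and 0 saturated spots. Beside the hepatocyte markers, 0 genes on the Kupffer cell, bile duct, stellate cell, endothelial and leukocyte lists passed the threshold by limma. Of all detected genes 1.30% passed it as higher and 0.429% as lower. On these lists 1 stellate and 1 leukocyte gene had an unadjusted limma p under 0.05, against 19.1% of all detected genes. The median log2 fold changes of these lists were -0.15, -0.22, -0.66, -0.20 and 0.40. All 5 Kupffer cell, 3 bile duct and 4 endothelial genes tested had lower means in TCE mice, and the stellate cell gene Lrat, which makes retinyl esters, gave -1.35 (adjusted p = 0.0676). The summed signal of the 4 endothelial markers was 12200 in TCE mouse 1, the mouse with the highest Mt1 and Mt2. It was 22000 to 22500 in control mice, and 23860 and 21760 in TCE mice 2 and 3. The part of these cell types in the member values was not tested.

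**Figure D5:**
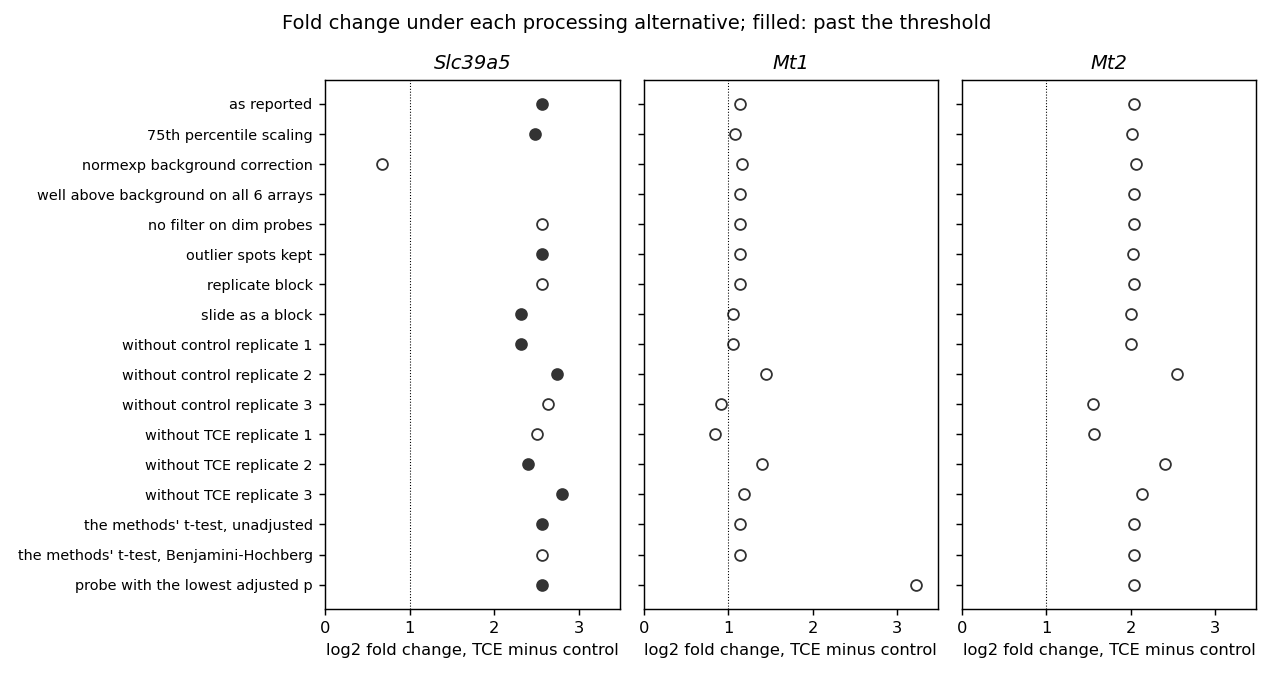
Log2 fold change (TCE minus control) of Slc39a5, Mt1 and Mt2 as reported and under each alternative way of processing, with filled points past the threshold and dotted lines at 2-fold. For the methods' t-test without adjustment the threshold is on its unadjusted p. Slc39a5 lies between 0.68 and 2.80 and is past the threshold in 9 of 15 alternatives, while Mt1 (0.84 to 3.23) and Mt2 (1.55 to 2.54) are above 0 in all 16 and past it in 0. Not all alternatives are separate checks. The slide block repeats the change without control mouse 1, and the choice of probe leaves Slc39a5, with a single probe, as reported.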

How the data were processed

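The authors extracted the arrays with Agilent Feature Extraction 10.7.1.1 per the labels, and the deposited scanner files give a background-corrected intensity for each spot. The authors' deposited table of quantile-normalized log2 group means was used to check the values, and they lay within 0.01 of those computed here for 99.99% of probes. Its 6 columns of flags for single arrays were not used. Control spots and outlier spots were removed, intensities were put on the log2 scale without a pseudocount, replicate spots were averaged by probe, and quantile normalization was applied across the 6 arrays. The number of arrays limits the precision.

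Detected probes were compared by limma 3.58.1 (R 4.3.3, two-sided moderated test from lmFit and eBayes, with no covariate beside group), and the procedure was tested on simulated data. A gene with several detected probes was represented by the brightest on average. For a group below background, the fold change was also set against the lowest probe well above background on each array, which is no strict minimum. Each array is a separate mouse, and replicate numbers were not taken to pair the mice, which the labels do not settle.

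All members are named with each probe, other listed genes where they passed the threshold or an adjusted p of 0.05, and a few more (Lcn2, Hamp, Socs3, Itih4, Lrat, Slc30a5, Slc30a7, Mt3, Mt4 and acinar enzymes) were chosen after their values were seen. The 3 nearest profiles are by root mean square distance. The members and gene lists were chosen with earlier results of these data known.

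Alternatives were 75th percentile scaling, normexp background correction (offset 50), a stricter and no filter on dim probes, retention of outlier spots, replicate number or slide as a block, each mouse left out, the t-test that the methods name, the authors' group means, and the probe with the lowest adjusted p. Promoter windows are from RefSeq (GRCm38.p6), searched in Python 3.11.15, with plots by matplotlib 3.10.9. Other doses, qPCR and DNA methylation were not analysed here.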

Additional observations from a re-analysis of the deposited data

How the results depend on the processing

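As reported, 1 member gene, Slc39a5, was past the threshold and 1 had an adjusted p of 0.05 or less at any fold. The count past the threshold was 0 with normexp (log2 fold change 0.68), 0 with only probes well above background on all 6 arrays (where Slc39a5 was not among the 7 members tested), 0 with no filter on dim probes (adjusted p 0.0923) and 0 by the methods' t-test after Benjamini-Hochberg adjustment (0.0949), and the count at any fold was 0 in the same settings except normexp, where it was 1. Without that adjustment the methods' t-test passed Slc39a5 at 2-fold and at any fold, on its unadjusted p only. Leaving out each mouse gave counts from 0 to 1, with 0 without control mouse 3 or without TCE mouse 1. With the replicate block both counts were 0 (Slc39a5 adjusted p 0.0865), and the calls over all genes went from 230 to 45, but same-numbered mice did not deviate together (r = 0.09, 0.007 and -0.092), and the numbers were not taken to pair the mice.

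With 75th percentile scaling, outlier spots kept, slide as a block or the probe with the lowest adjusted p, both counts were 1. For Slc39a5 the slide block repeats the change without control mouse 1, and the last of these settings repeats the reported fit. Mt1 and Mt2 were past the threshold in 0 of 16 alternatives, with adjusted p from 0.134 to 0.474 and from 0.117 to 0.423. Slc30a1, Slc30a10 and Slc39a4 kept their sign in 16 of 16, and Mtf1 and Slc39a14, near 0, in 13 of 16. Differences of the authors' group means moved the 8 member values by less than the spread between mice. The scalings moved the median of all genes by at most 0.05. Slc39a5 is limited by its signal in control mice, which is not well above background.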
